A study of Mus musculus with 9 samples.

Results

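The genes for 8 ion channels that open, or are proposed to open, when a membrane is stretched were followed in whole mouse lung: Piezo1, Piezo2, Trpv4, Trpv2, Trpc6, Kcnk2, Tmem63a and Tmem63b. They were chosen by name as channels known or proposed to be mechanosensitive, with earlier results of these data known, and are 8 of 27203 genes and assembled loci in the table. They take 35 of its 60108 transcript rows, and each of the 8 genes has more than 1 row. A gene's level is the sum over its rows in FPKM (fragments per kilobase of exon, scaled to the mapped fragments of the library), so that levels of different genes can be set beside each other per length of transcript. All 8 gene sums passed the filter on low values (a mean of at least 0.1 FPKM over the 9 libraries), as did 26 of the 35 rows.

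The lungs came from male C57BL/6 mice of 6 to 8 weeks, 3 mice in each of 3 groups. In ventilator-induced lung injury (VILI), anesthetized mice were ventilated for 4 hours at a high tidal volume of 20 ml/kg with pancuronium as muscle relaxant, and lungs were taken at the end of ventilation (VILI 0 hours) or after 6 hours of recovery (VILI 6 hours). These groups are called 0 hours and 6 hours from here on, and their difference is that of 6 hours from 0 hours. Control mice were intubated and not ventilated, so stretch, the muscle relaxant and the hours of maintained anesthesia cannot be told apart as sources of a difference from control. The sources used here do not say when the sequenced controls were killed, so the time since the procedure cannot be told apart from these either. Each library is 1 mouse, the labels give no batch, and p-values measure the spread between these libraries only.

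Channels of this kind turn a mechanical force on the membrane into a flow of ions within milliseconds. Piezo and TRP channels let calcium in, which reaches calmodulin, calcineurin, calpains and nitric oxide synthase, whereas the potassium channel encoded by Kcnk2 pulls the membrane toward its resting voltage. In the lung, calcium entry through stretch-gated channels of endothelial cells is known to loosen the barrier between blood and air space, and stretch of alveolar epithelial cells is known to release surfactant.

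The lung markers were those of the labelled tissue. The 6 alveolar type 2 markers summed to between 11619 and 14590 FPKM in the 9 libraries, the 6 endothelial markers to between 764 and 945 FPKM, and no marker of the 13 cell type lists was missing or at 0 in all libraries. The 6 neutrophil markers each passed an unadjusted P under 0.05 in both comparisons with control, and their sum ran from 45.6 to 53.3 FPKM in control, from 541 to 967 FPKM at 0 hours and from 446 to 1862 FPKM at 6 hours. Replicate 1 of 6 hours stood apart, with 369 FPKM for the 4 erythroid markers, where the other 8 libraries ran from 2525 to 4231 FPKM, and with the lowest sum of the T and B cell markers (10.3 FPKM). The 6-hour fold changes of the channel genes are therefore given with and without it. Replicate 3 of 0 hours differed too, with 274 FPKM for the 6 cardiac muscle markers, where the other 8 libraries ran from 125 to 165 FPKM. Its T and B cell markers summed to 18.9 FPKM, against 47.4 and 33.9 FPKM in replicates 1 and 2 of 0 hours. Lavage fluid was taken from the airways of mice in the study, and whether the sequenced lungs had been lavaged is not given in the sources used here. In RNA from whole lung, fewer cells of a type and less RNA per cell cannot be told apart.

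Summed over all 8 genes, the channels held 121 ± 4.29 FPKM in control, 110 ± 7.53 FPKM at 0 hours and 116 ± 9.24 FPKM at 6 hours (mean ± SD, n = 3 per group). In control lung the order from the highest to the lowest level was Tmem63b (28.5 ± 1.68 FPKM), Piezo1 (24.8 ± 1.85 FPKM), Tmem63a (22.5 ± 1.16 FPKM), Trpc6 (19.5 ± 0.430 FPKM), Piezo2 (11.9 ± 0.730 FPKM), Kcnk2 (7.55 ± 1.04 FPKM), Trpv2 (4.47 ± 0.158 FPKM) and Trpv4 (1.83 ± 0.284 FPKM). Only the neighbours Piezo1 and Tmem63a overlapped in that group, and the same order and the same single overlap held at 0 hours. At 6 hours Piezo1 stood first at 27.0 ± 1.56 FPKM, and the ranges of Piezo1 and Tmem63b, of Tmem63b and Tmem63a, of Piezo2 and Kcnk2 and of Kcnk2 and Trpv2 overlapped. Piezo1 was thus among the 3 highest of these channels in every group, and Trpv4 was the lowest in every group.

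**Figure D1:**
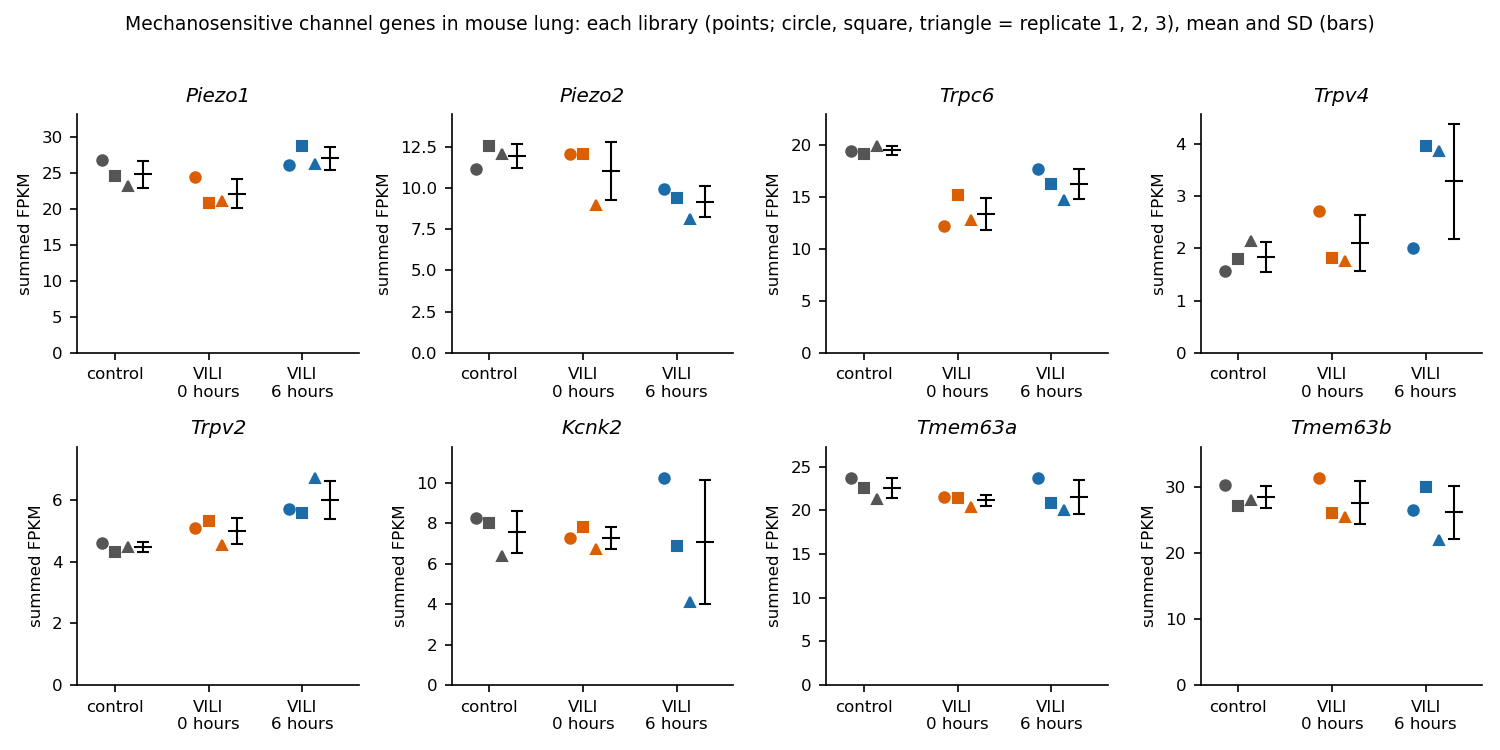
Summed FPKM (vertical axes, from 0) of each channel gene in the 3 libraries of each of control, VILI 0 hours and 6 hours; each point is 1 mouse and the bar beside it the mean and SD. The 3 Trpc6 points of 0 hours (12.2 to 15.2 FPKM) lie below the control points (19.1 to 19.97 FPKM), and the 3 Trpv2 points of 6 hours (5.59 to 6.73 FPKM) lie above those of the other groups.

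Between groups, none of the 8 gene sums reached an adjusted p under 0.05 (limma on log2(FPKM + 0.1), with Benjamini-Hochberg adjustment over 19378 genes). At 0 hours vs control 1 of 8 members passed the unadjusted P under 0.05 that the study used (Trpc6, lower), where 16.2% of all genes did. At 6 hours vs control 4 of 8 passed (Trpv2 and Trpv4 higher, Piezo2 and Trpc6 lower), where 20.4% of all genes did, and between the ventilated groups 2 of 8 passed (Piezo1 and Trpc6 higher), where 10% did. The median log2 fold change of the 8 members was -0.07, -0.10 and 0.14 in these comparisons, beside -0.07, -0.09 and -0.02 over all genes tested. The comparisons with control share the same 3 control libraries and are not independent of each other. After adjustment, 55, 136 and 0 of all genes were called (0.284%, 0.702% and 0% of those tested).

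Those counts moved when a library was left out. At 0 hours the count was 2 in place of 1 without 0-hour replicate 1, which added Piezo1 (12.9% of all genes then passed). At 6 hours vs control it was 5 without 6-hour replicate 1, which added Kcnk2, but 38.8% of all genes then passed in place of 20.4%. It was 2 without control replicate 1, control replicate 3 or 6-hour replicate 2, where 2787, 2573 and 2806 of 19378 genes passed in place of 3952. It was 1 (Trpv2) without control replicate 2 or 6-hour replicate 3, where 2543 and 2735 genes passed. Between the ventilated groups it was 1 without control replicates 1, 2 or 3, where 1605, 1599 and 1632 of 19378 genes passed in place of 1938. It was 1 as well without 0-hour replicates 2 or 3 (1431 and 1407 genes), and 0 without 6-hour replicate 2 (1906 genes). Without 6-hour replicate 1 it was 2 as well, but of Piezo1 and Trpv4 in place of Piezo1 and Trpc6, where 22.4% of all genes passed. With that library left out, 4512 genes (23.3%) also had an adjusted p under 0.05 at 6 hours vs control in place of 136, among them Trpv4 (1.07, adjusted p = 0.0126) and Trpv2 (0.45, adjusted p = 0.0452). At 0 hours vs control 1343 genes (6.93%) then had one in place of 55, among them Trpc6 (-0.55, adjusted p = 0.0179). Trpc6 also had one at 0 hours without 6-hour replicate 3 (adjusted p = 0.0491, where 1.27% of all genes did) and with only the 6 libraries compared (adjusted p = 0.0206, where 8.24% did). Centring each library on its median raised log2 fold changes from control by 0.11 at 0 hours and by 0.13 at 6 hours. This took the 6-hour count from 4 to 2 (Trpv2 and Trpv4), where 3910 of 19378 genes passed in place of 3952. Centring also moved the share of higher genes among all those called from 42.1% to 61.2% at 0 hours and from 40.1% to 58.1% at 6 hours.

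**Figure D2:**
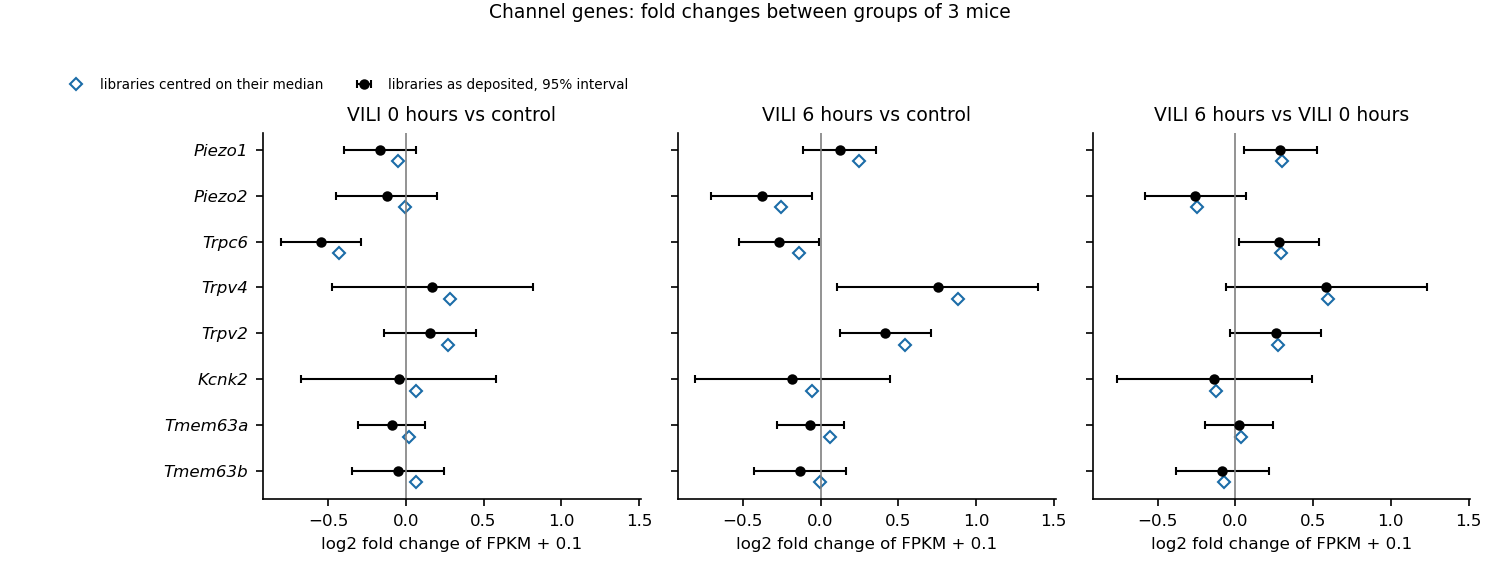
Log2 fold change of FPKM + 0.1 (horizontal axes) of the 8 channel genes in the 3 comparisons, with the 95% interval of the limma fit (black) and the value after each library was centred on its median (open diamonds). The Trpc6 interval lies wholly below 0 at 0 hours vs control (-0.80 to -0.29), and the points of Kcnk2, Tmem63a and Tmem63b at 0 hours and of Tmem63a at 6 hours change sign with the centring.

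Trpc6 encodes a calcium-permeable TRP channel opened by diacylglycerol, with a known part in endothelial permeability and in the tone of pulmonary artery smooth muscle. It lies on chr9:8544142-8680741 of GRCm38 on the plus strand and overlaps the annotated Gm32014 on the other strand. The gene sum was 19.5, 19.1 and 19.97 FPKM in control, 12.2, 15.2 and 12.8 FPKM at 0 hours and 17.8, 16.3 and 14.8 FPKM at 6 hours. All 0-hour libraries were below all 3 controls, and so were the 6-hour libraries, which overlapped those of 0 hours. The log2 fold change was -0.55 ± 0.114 (SE) at 0 hours vs control (P = 8.69e-04, limma, adjusted p = 0.0757), a ratio of 0.685, and an exact two-sided permutation test gave p = 0.1, the smallest that 3 against 3 allows. The value ran from -0.64 to -0.48 when each library was left out in turn and was -0.43 after centring, each with an unadjusted P under 0.05. Row 1 of the gene, the row with the highest mean, missed that threshold by itself (-0.30, 95% interval -0.71 to 0.10) and overlapped control. Among all genes, 33.5% had no overlap between 0 hours and control. Beside it, the 6 endothelial markers summed to 832 to 874 FPKM in control and 828 to 945 FPKM at 0 hours, and 1 of 6 passed the unadjusted threshold (Tek, -0.47, adjusted p = 0.112). The 7 markers of smooth muscle and pericytes summed to 227 to 290 FPKM in control and 249 to 343 FPKM at 0 hours, and 1 of 7 passed it (Notch3, -0.34, adjusted p = 0.270). The part of these markers in the Trpc6 value was not tested.

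At 6 hours Trpc6 was nearer to control, with a log2 fold change of -0.27 (adjusted p = 0.232), which passed an unadjusted P under 0.05 but not after centring (-0.14) or without any of control replicates 1, 2 and 3, 0-hour replicate 3 and 6-hour replicates 2 and 3 (-0.28 to -0.20). Between the ventilated groups it was 0.28 log2 higher at 6 hours (adjusted p = 0.458), and this too lost the threshold without any 1 of 7 libraries, with values of 0.22 to 0.28. Without 6-hour replicate 1 these values were -0.33 and 0.22. Rows 1 and 2 of the gene overlapped control at 6 hours, with log2 fold changes of 0.09 and -0.10. The lower gene sum at 6 hours thus rested on row 3, listed at 0 there, and a row can be listed at 0 although its gene is expressed.

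The 3 rows of Trpc6 did not follow each other. Row 2 was at 4.56, 4.38 and 4.92 FPKM in control, 1.92, 2.33 and 2.07 FPKM at 0 hours and 5.62, 3.90 and 3.59 FPKM at 6 hours. Every 0-hour value of row 2 lay below every value of the other groups, with log2 fold changes of -1.10 against control (adjusted p = 0.154) and of 0.997 between the ventilated groups (adjusted p = 0.335). Without 6-hour replicate 1 these were -1.10 (adjusted p = 0.021, where 1.04% of all rows passed) and 0.81 (adjusted p = 0.104), and with only the 6 libraries compared the first had an adjusted p of 0.0344 (0.981% of all rows passed). Row 1 held the largest part of the gene and was at 9.10, 13.4 and 11.4 FPKM in control, 7.78, 10.8 and 8.71 FPKM at 0 hours and 12.1, 12.4 and 11.2 FPKM at 6 hours, with overlap between control and both ventilated groups. Row 3 was listed at 0 in the 6-hour libraries, against 5.84, 1.35 and 3.64 FPKM in control and 2.55, 2.01 and 1.997 FPKM at 0 hours. It was the 1 row among the 26 tested with an adjusted p under 0.05, at 0.0189 at 6 hours vs control and 0.0469 between the ventilated groups, where 0.0751% and 0.0214% of all rows passed (0.0509% at 0 hours vs control). The first of these stayed under 0.05 with each library left out in turn (0.00249 to 0.0464), but was 0.112 with a pseudocount of 1 and 0.0665 with only the 6 libraries compared. Because all 6-hour values are 0, they add no spread, and leaving 1 of them out kept the log2 fold change at -4.99 and checks nothing. The value between the ventilated groups was over 0.05 without control replicate 3 (0.0904), 0-hour replicates 1, 2 or 3 (0.0736, 0.133 and 0.111) or 6-hour replicates 2 or 3 (0.0873 and 0.0683), and was 0.0304 without 6-hour replicate 1, all by limma. It was also over 0.05 with a pseudocount of 1 (0.362) and with a minimum mean of 1 FPKM (0.0944). As shares of the gene sum, row 2 held 23.6% ± 0.879 in control, 15.7% ± 0.422 at 0 hours and 26.6% ± 4.36 at 6 hours (SD, n = 3 each). Row 3 held 18.4% ± 11.4 in control, 16.6% ± 3.87 at 0 hours and 0% at 6 hours.

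GENCODE M21 lists 3 protein-coding Trpc6 transcripts, as many as there are rows, but the table pairs no row with a transcript identifier. The longest has 13 exons and 3259 bases, another has 12 exons and 2913 bases, and the remaining form has 3 exons, the last of 1990 bases. Within the coding sequence the 12-exon form lacks exon 6, which is 234 bases long at chr9:8649298-8649531. Both junctions are shown 5′ to 3′ as GENCODE gives them for GRCm38, starting with the last 30 bases of exon 5, because reads across them, like reads within exon 6, separate these forms. The pair differs by 346 bases in all, of which exon 6 is a part. Capitals mark the first 30 bases of exon 6, and the form without it goes on with exon 7 in lower case.
Trpc6 with exon 6: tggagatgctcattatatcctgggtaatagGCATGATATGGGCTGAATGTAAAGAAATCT
Trpc6 without exon 6: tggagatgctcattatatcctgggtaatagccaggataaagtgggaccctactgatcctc

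Piezo1 encodes a large trimeric cation channel that senses shear and stretch in endothelium, red cells and leukocytes. It lies on chr8:122481698-122551329 of GRCm38 on the minus strand, and its end overlaps Ctu2 on the other strand, which was at 3.22, 2.78 and 3.52 FPKM on average in control, at 0 hours and at 6 hours. The gene sum was 26.8, 24.6 and 23.1 FPKM in control, 24.5, 20.8 and 21.1 FPKM at 0 hours and 26.0, 28.8 and 26.2 FPKM at 6 hours. The 6-hour libraries were all above the 0-hour libraries, and both overlapped control. The log2 fold change was -0.17 at 0 hours (95% interval -0.40 to 0.07, adjusted p = 0.464), 0.12 at 6 hours (-0.11 to 0.36, adjusted p = 0.511) and 0.29 between the ventilated groups (0.06 to 0.52, adjusted p = 0.412). The last value lost the unadjusted threshold without 0-hour replicate 2 (0.25), 0-hour replicate 3 (0.26) or 6-hour replicate 2 (0.24), and was 0.32 without 6-hour replicate 1, where the value at 6 hours vs control was 0.15. Among all genes, 12.5% had no overlap between these groups.

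The division of Piezo1 between its 2 rows differed more than its sum. Row 1 was at 24.8, 21.9 and 21.0 FPKM in control, 18.0, 15.8 and 15.5 FPKM at 0 hours and 23.1, 23.4 and 24.0 FPKM at 6 hours. Row 2 was at 2.05, 2.66 and 2.16 FPKM in control, 6.49, 5.04 and 5.63 FPKM at 0 hours and 2.93, 5.43 and 2.24 FPKM at 6 hours. At 0 hours every value of row 1 was below, and every value of row 2 above, all 3 controls, whereas at 6 hours both rows overlapped control. The log2 fold change at 0 hours was -0.46 for row 1 (adjusted p = 0.212) and 1.28 for row 2 (adjusted p = 0.229). Both kept an unadjusted P under 0.05 with each library left out in turn and after centring, at which they were -0.33 and 1.41. With only the 6 libraries compared, the adjusted p of row 2 was 0.0383 (limma), where 0.981% of all rows passed.

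Row 2 held 7.64%, 10.8% and 9.36% of Piezo1 in control, 26.5%, 24.2% and 26.7% at 0 hours and 11.2%, 18.8% and 8.53% at 6 hours. The 3 shares at 0 hours lay above the other 6, and an exact two-sided permutation test of the share gave p = 0.1 against control and p = 0.1 against 6 hours, the smallest possible with 3 against 3, and p = 0.4 for 6 hours against control. These shares have no counterpart over all genes here, while in the levels of all rows tested 24.2% had no overlap between 0 hours and control, 18.6% between 6 hours and control and 11.4% between the ventilated groups. At 0 hours vs control 3 of the 26 rows of the channels passed an unadjusted P under 0.05 (both Piezo1 rows and Trpc6 row 2), where 11% of all rows did. At 6 hours vs control 4 of the 26 rows passed (Piezo2 row 1, Trpc6 row 3, Trpv2 row 1 and Kcnk2 row 3), where 13.2% of all rows did, and between the ventilated groups 5 passed (both Piezo1 rows, Piezo2 row 1 and Trpc6 rows 2 and 3), where 7.4% did.

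Both protein-coding Piezo1 transcripts of GENCODE M21 have the same exons but for 3 bases. They are 8219 and 8216 bases long and differ by CAG at chr8:122502309-122502311, at the 5′ edge of exon 6 of 51 and within the coding sequence, where a splice acceptor can fall on either side of it. If the 2 rows are these 2 transcripts, which the table does not say, their levels were told apart only by reads across this junction. The longer form is shown on its coding strand as GENCODE gives it for GRCm38, with 30 bases on either side and the 3 bases in capitals, followed by the shorter form.
Piezo1 longer form: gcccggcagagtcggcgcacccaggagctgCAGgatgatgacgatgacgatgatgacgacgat
Piezo1 shorter form: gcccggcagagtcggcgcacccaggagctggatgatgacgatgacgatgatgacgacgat

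Piezo2, the close relative of Piezo1 best known for touch and for sensing lung inflation in vagal neurons, lies on chr18:63010213-63387183 of GRCm38 on the minus strand. It was at 11.1, 12.6 and 12.1 FPKM in control, 12.1, 12.0 and 8.96 FPKM at 0 hours and 9.96, 9.41 and 8.11 FPKM at 6 hours. The 6-hour values were all below control, a separation from control that 24.6% of all genes had in one direction or the other, and they overlapped those of 0 hours, of which replicate 3 was low. The log2 fold change was -0.12 at 0 hours (adjusted p = 0.714) and -0.38 at 6 hours (95% interval -0.70 to -0.06, adjusted p = 0.192). The 6-hour value missed an unadjusted P of 0.05 after centring (-0.25) and without control replicate 2 (-0.34), control replicate 3 (-0.37) or 6-hour replicate 3 (-0.30), and was -0.44 without 6-hour replicate 1. Its row 1, which held at least 80.9% of the gene in every library, was at 10.7, 12.1 and 11.5 FPKM in control and 8.06, 8.81 and 7.77 FPKM at 6 hours, and its value of -0.48 (adjusted p = 0.241) stayed under the unadjusted threshold after centring (-0.39) and without 6-hour replicate 1 (-0.46). The 6 markers of neurons and glia, the cells of vagal endings and ganglia, summed to 1.96 to 4.42 FPKM in the 9 libraries. Levels of different genes do not give the share of a cell type, and which cells the Piezo2 RNA came from was not tested. The 6 endothelial markers did not move together at 6 hours. Tek (-0.55, adjusted p = 0.0716) and Tie1 (-0.58, adjusted p = 0.0912) passed the unadjusted threshold toward lower levels, and the other 4 did not pass it. Of these, Kdr had a log2 fold change of -0.66, Pecam1 of 0.03, Cdh5 of 0.15 and Cldn5 of 0.32, with Cldn5 at 133 to 141 FPKM in control and 153 to 205 FPKM at 6 hours. Their part in the Piezo2 value was not tested.

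Trpv4 encodes a calcium channel of alveolar endothelium, epithelium and macrophages that opens with swelling, stretch and warmth. It lies on chr5:114622152-114658421 of GRCm38 on the minus strand. The gene sum was 1.57, 1.79 and 2.14 FPKM in control, 2.72, 1.82 and 1.77 FPKM at 0 hours and 2.01, 3.97 and 3.87 FPKM at 6 hours. Replicates 2 and 3 of 6 hours were above all other libraries, and replicate 1 lay among the controls. The log2 fold change was 0.17 at 0 hours (95% interval -0.48 to 0.82, adjusted p = 0.810) and 0.75 at 6 hours (0.11 to 1.40, adjusted p = 0.193), a ratio of 1.69. Without 6-hour replicate 1 the 6-hour value was 1.07, while it missed an unadjusted P of 0.05 without control replicate 1 (0.66), control replicate 2 (0.74), 6-hour replicate 2 (0.59) or 6-hour replicate 3 (0.61). The 0-hour value turned to -0.02 without 0-hour replicate 1. Between the ventilated groups the log2 fold change was 0.58 (95% interval -0.06 to 1.23, adjusted p = 0.537), and without 6-hour replicate 1 it was 0.90 with an unadjusted P under 0.05 (adjusted p = 0.0776).

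Trpv2, a relative of Trpv4 that is prominent in macrophages and other leukocytes, lies on chr11:62574486-62600515 of GRCm38 on the plus strand. It was at 4.62, 4.30 and 4.49 FPKM in control, 5.11, 5.34 and 4.55 FPKM at 0 hours and 5.73, 5.59 and 6.73 FPKM at 6 hours. All 6-hour values exceeded the other 6, and the 0-hour values overlapped control. The log2 fold change was 0.16 at 0 hours (95% interval -0.14 to 0.45, adjusted p = 0.595) and 0.42 at 6 hours (0.12 to 0.71, adjusted p = 0.142), a ratio of 1.33. The 6-hour value had an unadjusted P under 0.05 with each library left out in turn and after centring (0.54), and was 0.45 without 6-hour replicate 1. Beside it, the sum of the 6 alveolar macrophage markers was 228 to 312 FPKM in control, 369 to 445 FPKM at 0 hours and 251 to 641 FPKM at 6 hours, and that of the 6 neutrophil markers is given above, with all 6 passing the unadjusted threshold at 6 hours and 1 of 6 macrophage markers. The highest macrophage sum at 6 hours was mostly Chil3 in replicate 1 (528 FPKM, against 142 and 221 FPKM in the other two and 129 to 186 FPKM in control). Their part in the Trpv2 value was not tested.

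Kcnk2 encodes TREK-1, a potassium channel opened by stretch, acid and lipids, which in lung is known from epithelium and smooth muscle. It lies on chr1:189207930-189402273 of GRCm38 on the minus strand, with the annotated 2900042K21Rik within it on the same strand. The gene sum was 8.27, 8.02 and 6.37 FPKM in control, 7.27, 7.83 and 6.73 FPKM at 0 hours and 10.2, 6.87 and 4.09 FPKM at 6 hours. The 6-hour group held both the highest and the lowest of the 9 values. Its log2 fold change was -0.05 at 0 hours (95% interval -0.67 to 0.58), turning to 0.07 with centring, and -0.18 at 6 hours (-0.81 to 0.45, adjusted p = 0.727). The 6-hour value was -0.49 without 6-hour replicate 1, with an unadjusted P under 0.05 (adjusted p = 0.124), and 0.16 without 6-hour replicate 3. In replicate 3 its row 1 was listed at 0, where the other 8 libraries ran from 4.17 to 5.47 FPKM, and row 3 stood at 1.79 FPKM, against at most 0.636 FPKM in the others.

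Tmem63a and Tmem63b belong to the OSCA and TMEM63 family of stretch-activated cation channels, which in alveolar epithelial cells have been linked to surfactant release. They lie on chr1:180942344-180975112 (plus strand) and chr17:45660171-45686905 (minus strand) of GRCm38, and the start of Tmem63b overlaps Mrpl14 on the other strand (19.0, 19.1 and 15.5 FPKM on average in control, at 0 hours and at 6 hours). Tmem63a was at 23.7, 22.6 and 21.3 FPKM in control, 21.5, 21.5 and 20.4 FPKM at 0 hours and 23.7, 20.9 and 20.1 FPKM at 6 hours. Tmem63b was at 30.3, 27.0 and 28.0 FPKM in control, 31.3, 26.0 and 25.4 FPKM at 0 hours and 26.4, 29.9 and 22.0 FPKM at 6 hours. In both genes all groups overlapped. The 95% intervals against control ran from -0.31 to 0.13 and from -0.28 to 0.15 log2 for Tmem63a at 0 and 6 hours, the narrowest of the 8 genes, and from -0.35 to 0.25 and from -0.43 to 0.17 log2 for Tmem63b. Without 6-hour replicate 1 the 6-hour values were -0.14 for Tmem63a and -0.15 for Tmem63b. With centring the Tmem63a values turned to 0.02 and 0.06 and the 0-hour value of Tmem63b to 0.06.

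The rows of Tmem63a traded places between single libraries, not between groups. Row 3 was at 7.18, 20.3 and 19.3 FPKM in control, 19.2, 19.8 and 18.3 FPKM at 0 hours and 6.48, 19.3 and 4.29 FPKM at 6 hours. Row 4 was at 13.96, 15.6 and 14.5 FPKM in control replicate 1 and 6-hour replicates 1 and 3, the 3 libraries in which row 3 was low, and at no more than 0.0169 FPKM in the other 6. The sum of both rows stayed between 18.3 and 22.1 FPKM. In Trpv4 the division between rows 1 and 5 varied from library to library at a lower level, and their sum ran from 1.57 to 3.97 FPKM, as the gene did. Row 1 was at 0.258, 0.863 and 0.0569 FPKM in control, 1.02, 1.49 and 0.186 FPKM at 0 hours and 1.82, 0.256 and 3.72 FPKM at 6 hours, and row 5 held the rest of the gene, since rows 2, 3 and 4 were at 0 in every library. The longest protein-coding transcripts of these genes are close in sequence, with 94.9% of the bases of either shared by both for Tmem63a and 99.8% for Trpv4. Neither row of Trpv4 passed an unadjusted P under 0.05 in any comparison.

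**Figure D3:**
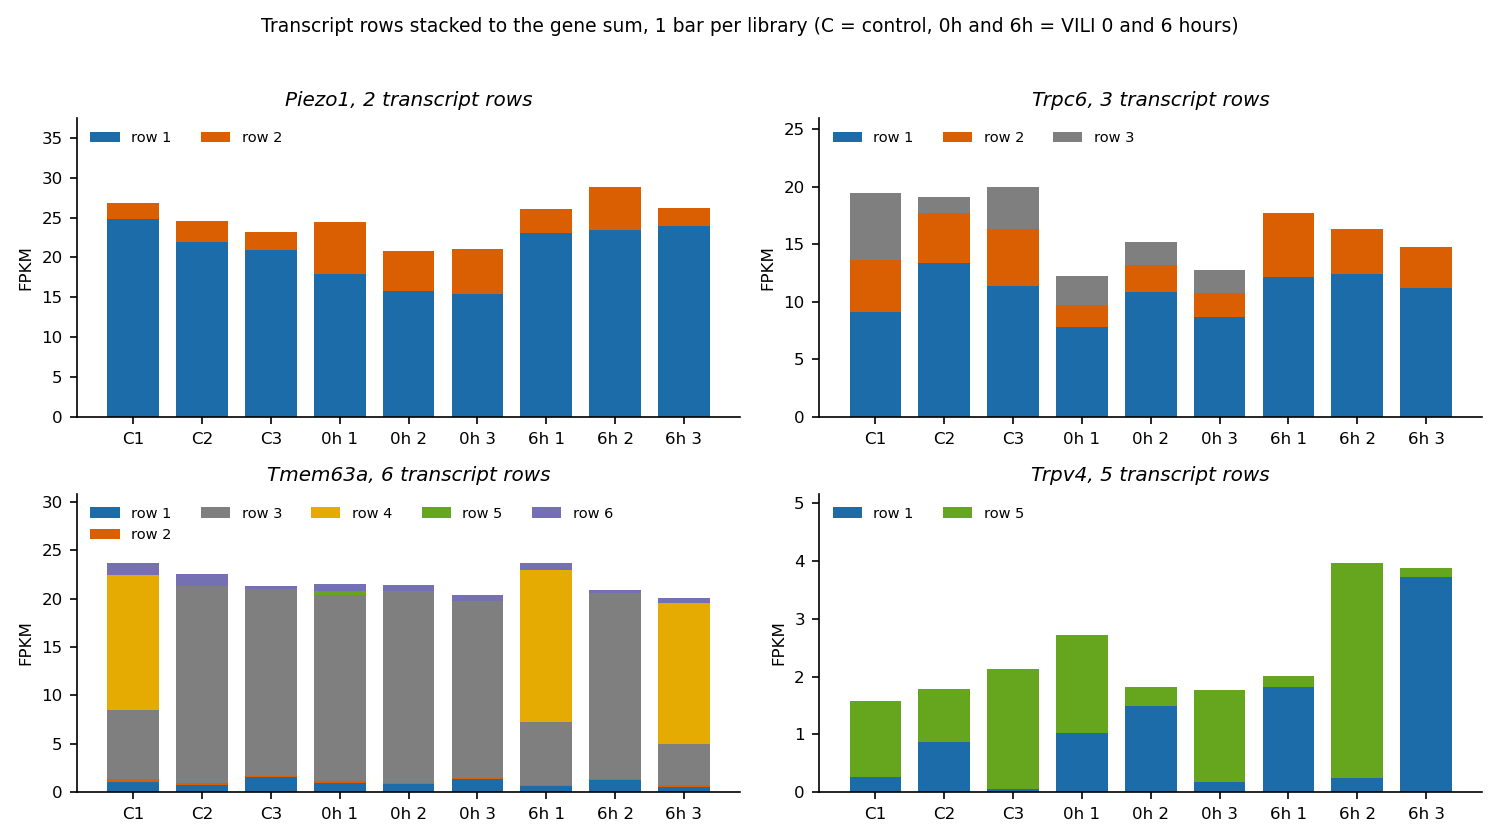
FPKM of the transcript rows of Piezo1, Trpc6, Tmem63a and Trpv4 (vertical axes, from 0), stacked to the gene sum with 1 bar per library in the order control, VILI 0 hours, VILI 6 hours; rows under 0.2 FPKM in every library are left out. Row 2 of Piezo1 is at 5.04 to 6.49 FPKM in the 0-hour bars, row 3 of Trpc6 is absent from the 6-hour bars, and rows 3 and 4 of Tmem63a replace each other in single libraries of control and 6 hours.

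The sequence before the start of the members was read from RefSeq (GRCm38.p6), which held a start for 7 of the 8 genes, without Piezo2. In the 250 bases before the start, 8 motifs were searched on both strands. The GC box (GGGCGG), the TATA box (TATAAA) and the CCAAT box (CCAAT) are bound by general promoter factors. The cyclic AMP response element was searched as TGACGTCA and the AP-1 site as TGANTCA. The MCAT site (GGAATG) binds TEAD factors, while the heat shock element and the CArG box, bound by serum response factor, were searched by the letters of their usual definitions. The 2 members whose rows passed the unadjusted threshold at 0 hours are shown 5′ to 3′ on the strand of the gene, with matches in capitals. Piezo1 (chr8:122551330-122551579, minus strand, 74% G and C) held a GC box 40 bases and a TATA box 24 bases before the start. Trpc6 (chr9:8543892-8544141, plus strand, 56.4% G and C) held a CArG box 122 bases before the start, and Tmem63a held the only other CArG box among the members.
Piezo1 promoter: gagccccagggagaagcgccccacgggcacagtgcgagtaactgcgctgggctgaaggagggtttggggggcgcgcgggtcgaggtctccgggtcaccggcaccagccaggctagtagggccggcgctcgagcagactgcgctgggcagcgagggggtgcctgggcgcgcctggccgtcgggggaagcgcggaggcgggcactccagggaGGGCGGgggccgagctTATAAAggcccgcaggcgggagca
Trpc6 promoter: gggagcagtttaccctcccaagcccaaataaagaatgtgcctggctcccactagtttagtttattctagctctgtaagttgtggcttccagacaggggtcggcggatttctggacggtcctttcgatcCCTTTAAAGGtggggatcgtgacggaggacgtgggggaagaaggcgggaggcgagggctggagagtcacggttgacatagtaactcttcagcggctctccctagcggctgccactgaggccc

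Of 32817 distinct promoter windows of the same length, 32.7% held a GC box, 12.4% a TATA box and 1.47% a CArG box. The matches are a description of these letters and not of binding. No match to the heat shock element or the cyclic AMP response element, held by 0.466% and 1.55% of all windows, was found in the members' windows.

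A list of 44 genes for partner proteins and further channels, chosen by name in the same way, was read from the same fit. In it 28 passed the filter. The list holds the same families and others, among them TMC channels, volume-regulated anion channels, acid-sensing channels and hemichannels. At an unadjusted P under 0.05, 4 were higher and 4 lower at 0 hours vs control (6.81% and 9.35% of all genes), 8 higher and 4 lower at 6 hours vs control (8.17% and 12.2%) and 5 higher and 0 lower between the ventilated groups (5.06% and 4.94%). The last count, in either direction, was 12 without 6-hour replicate 1, where 22.4% of all genes passed, and 3 without 0-hour replicate 2 (7.38%). The count at 0 hours was 5 without 0-hour replicate 3 (11.2%), and that at 6 hours vs control 7 without 6-hour replicate 2 (14.5%) or 6-hour replicate 3 (14.1%). The median log2 fold change of the list was -0.06, 0.02 and 0.05, beside -0.07, -0.09 and -0.02 over all genes. Trpm2, a phagocyte calcium channel that opens with oxidative stress, was the 1 gene of the list to pass after adjustment with all 9 libraries. It was higher in both comparisons with control. It was at 0.489, 0.769 and 0.457 FPKM in control, 2.21, 3.03 and 4.10 FPKM at 0 hours and 2.26, 2.34 and 2.002 FPKM at 6 hours. All 6 ventilated lungs were above all 3 controls, with log2 fold changes of 2.25 ± 0.265 (SE, adjusted p = 0.0247) and 1.80 ± 0.265 (adjusted p = 0.0257). The adjusted p at 0 hours ran from 0.00294 to 0.186 with each library left out in turn and was over 0.05 without control replicates 1, 2 or 3 (0.135, 0.0646 and 0.186) or 0-hour replicates 2 or 3 (0.0758 and 0.10), and it was 0.0544 with no filter. At 6 hours it was over 0.05 without control replicates 1, 2 or 3 (0.111, 0.102 and 0.150) or 6-hour replicates 2 or 3 (0.0815 and 0.0617), was 0.0555 with only the 6 libraries compared, and was 0.00557 without 6-hour replicate 1. The fold change itself stayed between 2.03 and 2.46 log2 at 0 hours and between 1.68 and 2.0 log2 at 6 hours. The neutrophil markers given above were higher in the same 6 lungs, and their part in the Trpm2 value was not tested.

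**Figure D4:**
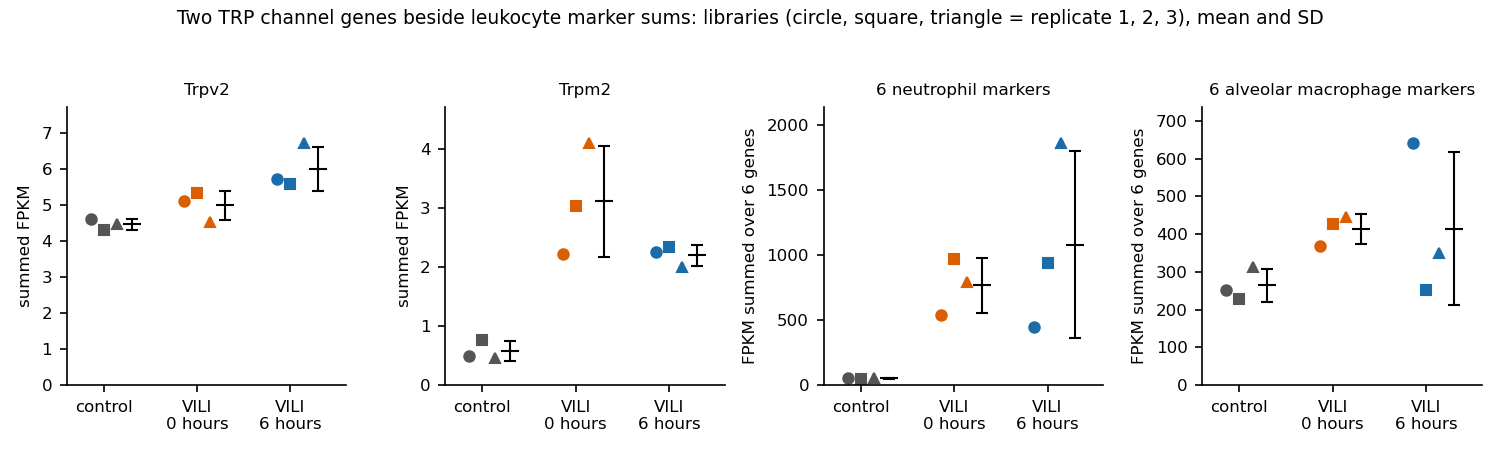
Summed FPKM of Trpv2 and Trpm2 and of the 6 neutrophil and 6 alveolar macrophage markers (vertical axes, from 0) in each library by group, with mean and SD. Trpm2 and the neutrophil markers are higher in all 6 ventilated lungs than in control, whereas Trpv2 lies above control at 6 hours and overlaps it at 0 hours.

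Other genes of that list were named by the smallest P or the highest level. Kcnk1, a 2-pore potassium channel gene, was at 4.42, 4.38 and 4.24 FPKM in control, 11.7, 8.32 and 10.4 FPKM at 0 hours and 5.21, 13.4 and 14.2 FPKM at 6 hours (log2 fold changes 1.19 and 1.18 against control, adjusted p = 0.132 and 0.116). Lrrc8b, a subunit of volume-regulated anion channels, was at 22.8, 22.0 and 21.3 FPKM in control, 17.8, 13.4 and 12.6 FPKM at 0 hours and 22.9, 18.9 and 20.5 FPKM at 6 hours (-0.60 at 0 hours, adjusted p = 0.0892). Lrrc8a, the subunit those channels cannot do without and the next highest gene of the list in control after Pkd2 (34.4 ± 0.665 FPKM) and Pkd1 (32.8 ± 1.53 FPKM), was at 27.3, 25.5 and 25.4 FPKM in control, 59.6, 38.8 and 53.3 FPKM at 0 hours and 27.1, 66.9 and 76.1 FPKM at 6 hours. Its log2 fold changes from control were 0.93 and 0.99 (adjusted p = 0.219 and 0.164, the unadjusted threshold being missed without control replicate 3 or 0-hour replicates 1 or 3 at 0 hours and without 6-hour replicates 2 or 3 at 6 hours), and 6-hour replicate 1 was at the control level for Lrrc8a and near it for Kcnk1. Without that library the 6-hour values were 1.45 for Lrrc8a and 1.64 for Kcnk1. Their adjusted p was then 0.0011 and 0.00045 (limma), where 4512 of 19378 genes had one under 0.05. Kcnk13 was at 1.17 to 1.19 FPKM at 0 hours and 1.96 to 2.34 FPKM at 6 hours (0.84, adjusted p = 0.173), below and above the controls (1.40 to 1.51 FPKM). Between the ventilated groups the next were Lrrc8b (0.52, adjusted p = 0.288), Lrrc8c (0.37, adjusted p = 0.376) and Tmc5 (0.86, adjusted p = 0.383). Kcnk13, Lrrc8c and Tmc5 also passed the unadjusted threshold at 6 hours vs control (0.55, 0.39 and 0.84).

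Of 34 genes of calcium signalling, the calcium effector list, all 34 were tested and none passed after adjustment with limma on all 9 libraries. The list also holds genes of calcium stores and of entry through other channels, such as Stim1 and Orai1. At an unadjusted P under 0.05, 2 were higher and 6 lower at 0 hours vs control (6.81% and 9.35% of all genes), 3 higher and 1 lower at 6 hours vs control (8.17% and 12.2%), and 4 higher and 0 lower between the ventilated groups (5.06% and 4.94%). With 6-hour replicate 1 left out, the number past the threshold in either direction was 17 at 6 hours vs control and 10 between the ventilated groups, where 38.8% and 22.4% of all genes passed. At 0 hours it was 5 without control replicate 1 (10.8%) and 3 without control replicate 2 (10.2%) or 0-hour replicate 3 (11.2%). The list had median log2 fold changes of -0.05, -0.04 and 0.02, beside the -0.07, -0.09 and -0.02 of all genes. Nos3, the endothelial nitric oxide synthase, was at 6.40, 6.21 and 5.43 FPKM in control, 4.11, 4.08 and 3.52 FPKM at 0 hours and 5.82, 9.09 and 7.69 FPKM at 6 hours. Its 0-hour values lay below the other 6, with log2 fold changes of -0.61 against control (adjusted p = 0.138) and 0.91 between the ventilated groups (adjusted p = 0.155). Camkk2, a calmodulin-dependent kinase kinase, had the same shape, at 16.6, 14.3 and 13.6 FPKM in control, 8.16, 9.84 and 8.16 FPKM at 0 hours and 16.3, 13.3 and 12.6 FPKM at 6 hours (-0.76, adjusted p = 0.0627, then 0.68, adjusted p = 0.184). Capn2, the large subunit of a calcium-activated protease, was at 64.7 to 71.7 FPKM in control, 82.9 to 93.9 FPKM at 0 hours and 86.6 to 97.1 FPKM at 6 hours (0.37 and 0.42, adjusted p = 0.1001 and 0.0702). Nfatc4 had a log2 fold change of -0.41 at 0 hours (adjusted p = 0.207) and Nfatc3 of -0.29 at 6 hours (adjusted p = 0.131), both genes of calcineurin-dependent transcription factors, and both missed the unadjusted threshold after centring (-0.29 and -0.16). Camk2d (0.56, adjusted p = 0.0811) and the calcium sensor gene Stim1 (0.42, adjusted p = 0.193) were higher at 6 hours vs control at the unadjusted threshold. Stim1 was higher at 0 hours too (0.43, adjusted p = 0.238), at 22.4 to 24.6 FPKM against 15.7 to 19.1 FPKM in control. At that threshold Camk2d (0.45, adjusted p = 0.325) and the channel gene Orai1 (0.43, adjusted p = 0.348) were higher between the ventilated groups. With 6-hour replicate 1 left out, the values at 6 hours vs control were 0.63 for Camk2d, 0.61 for Stim1, 0.46 for Capn2 and -0.32 for Nfatc3. Calm2, a calmodulin gene (198 ± 17.7 FPKM), and Capns1, a calpain subunit gene (88.7 ± 3.85 FPKM), were among the 3 highest genes of the list in control.

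The genes whose levels ran most alike with each member over the 9 libraries were found by Pearson's r on log2(FPKM + 0.1) among 14107 genes with a mean of at least 1 FPKM, as a description of libraries that share the group differences. For Trpv2 they were Arpc1b (r = 0.988), Lrrc25 (0.965) and Fcer1g (0.963), and for Trpc6 Ptdss1 (0.975), C730045M19Rik (0.974) and Aco1 (0.973). For Piezo2 they were Dennd2c (0.972), Clec14a (0.964) and 4921524J17Rik (0.954), and for Piezo1 Dera (0.945), Phc1 (0.936) and Bend3 (0.932). For Trpv4 they were Tbp (0.964), Eif1a (0.960) and Kazn (0.955), and for Kcnk2 Pygo2 (0.980), Tysnd1 (0.974) and Tspyl4 (0.971). For Tmem63a they were 2610507B11Rik (0.971), Pigl (0.964) and Met (0.960), and for Tmem63b Brf1 (0.957), Dtd2 (0.952) and Mtfr1l (0.938). Among the members themselves r was 0.82 for Kcnk2 with Tmem63a and 0.72 for Trpv4 with Trpv2, and it ran from -0.64 to 0.60 for the other 26 pairs.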

How the data were processed

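Total RNA of 9 mouse lungs, 3 in each group, was sequenced. The authors aligned reads with TopHat2 (2.0.9, with Bowtie2 2.0.6), assembled transcripts with Scripture and Cufflinks, and deposited FPKM per transcript row from Cuffdiff (2.1.1) on GRCm38, per the submitters' processing notes. Labels and methods name different library kits and sequencers, so the strandedness of the reads is unclear and overlapping genes cannot be told apart with certainty. Counts cannot be read from FPKM, and the depth that the study lists per library was not used, so precision comes from the replicates alone. Library sums ran from 366360 to 388459 FPKM. Cuffdiff divides reads among overlapping transcripts by estimation, and a row can be listed at 0 although its gene is expressed.

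Rows were summed per gene and tested in limma 3.58.1 (R 4.3.3, eBayes with trend) on log2(FPKM + 0.1) in 1 fit of all 9 libraries, with genes (19378) or rows (37300) of a mean of at least 0.1 FPKM and Benjamini-Hochberg adjustment over all of them. Fold changes of values near 0.1 FPKM are thereby understated. The study's level of an unadjusted P under 0.05 was also counted. Single values were compared by exact two-sided permutation tests. Scripts (Python 3.11.15) were tested on simulated data. All 8 members were named. Of the 2 further lists, up to 4 genes with the smallest unadjusted P under 0.05 per comparison and the 3 highest in control were named, and for each member the 3 genes with the highest r. Of the genes this rule named, 2 are not reported here. Names and positions came from GENCODE M21 (23580 of 23713 Ensembl gene IDs matched). Alternatives were other pseudocounts (0.01 and 1), filters, centring, a replicate block, no variance trend, 6 libraries only, the highest row, and each library left out. The members and lists were chosen with earlier results of these data known.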

Additional observations from a re-analysis of the deposited data

Results flagged for a closer look

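The following values differed between both ventilated groups by the test of that difference itself (6 hours against 0 hours after ventilation, limma, unadjusted P under 0.05). Both groups share their controls, so their fold changes from control are not independent of each other. At the level of the gene, the log2 difference was 0.29 for Piezo1 (adjusted p = 0.412) and 0.28 for Trpc6 (adjusted p = 0.458). At the level of rows it was 0.52 for Piezo1 row 1 of 2 (adjusted p = 0.341), -0.77 for Piezo1 row 2 of 2 (adjusted p = 0.648), 0.997 for Trpc6 row 2 of 3 (adjusted p = 0.335) and -0.31 for Piezo2 row 1 of 5 (adjusted p = 0.665). For Trpc6 row 3 of 3, listed at 0 in VILI 6 hours, it was -4.51 on the scale of log2(FPKM + 0.1), which depends on the pseudocount and is no bound (adjusted p = 0.0469). The Piezo1 row 2 value missed the unadjusted threshold without VILI 0 hours replicates 1 or 3 or VILI 6 hours replicates 1 or 3 (-0.68, -0.78, -0.69 and -0.50). The Piezo2 row 1 value missed it without any 1 of 7 libraries, the exceptions being VILI 0 hours replicate 3 and VILI 6 hours replicate 2 (-0.31 to -0.22). The values of Piezo1 row 1 and of Trpc6 rows 2 and 3 kept it under each library left out. Groups of 3 were not tested for outlying samples, and VILI 6 hours replicate 1 was set apart above only by its marker sums.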

How the results depend on the processing

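The study lists the reads of each library, but the counts behind single FPKM values are unknown, and 3 mice per group limit the precision. Of 1690 fold changes recomputed for single genes and rows, 1551 kept direction and side of the unadjusted threshold, 42 changed sign, 27 gained the threshold and 70 lost it; of 309 recomputed counts, 72 moved by over 1.5 times. The cause was not tested. For VILI 0 hours vs control, genes at an unadjusted P under 0.05 numbered 5094 with only the 6 libraries compared (3130 as reported). Those at an adjusted p under 0.05 numbered 15 with a pseudocount of 1, 1 with no filter, 20 with no variance trend and 1597 with 6 libraries. For VILI 6 hours vs control they numbered 75, 41 and 36 with no filter, no trend and 6 libraries. The channels at an unadjusted P under 0.05 there numbered 2 after centring and 2 with the highest row of each gene. Of all genes, 3910 and 3427 then passed, in place of 3952. For VILI 6 hours vs VILI 0 hours, genes at an unadjusted P under 0.05 numbered 1850 with no trend and 1210 with 6 libraries (1938 as reported). Channels at that threshold numbered 1 with no trend and 1 with 6 libraries, and genes after adjustment 2 and 1. Replicate numbers did not pair the mice (correlations of same-numbered libraries -0.221 to 0.0175). With the replicate block 10 and 43 genes were called after adjustment against control at 0 and 6 hours. Between the ventilated groups 1 channel then had an unadjusted P under 0.05, where 1693 of all genes did. The block took the adjusted p of Trpm2 to 0.0605 and 0.0611 and that of Trpc6 row 3 to 0.0948 and 0.316 (limma).

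Row 1 of Trpc6, the highest row of that gene, missed the unadjusted threshold at VILI 0 hours vs control (-0.30), which the gene sum passed. Signs turned with the highest row alone for Trpv4 (-0.43, -1.16 and -0.73 in the 3 comparisons), Tmem63a (0.43 at VILI 0 hours and -1.22 between ventilated groups) and Trpc6 (0.09 at VILI 6 hours). They turned with centring for Kcnk2 (0.07), Tmem63a (0.02), Tmem63b (0.06), Tmem63b row 3 (0.06) and Tmem63a row 1 (0.06) at VILI 0 hours and Tmem63a (0.06) at VILI 6 hours. With each library left out in turn, the 3 comparisons gave 1979 to 4493, 2543 to 7526 and 1407 to 4350 genes at an unadjusted P under 0.05, 1 to 1343, 0 to 4512 and 0 to 356 after adjustment, 1 to 2, 1 to 5 and 0 to 2 channels, 5 to 10, 7 to 12 and 3 to 12 partner genes and 3 to 9, 3 to 17 and 4 to 10 calcium effector genes, and 2 to 7 and 3 to 8 channel rows in the last 2. Signs then turned at VILI 0 hours for Piezo2 (-0.20 to 0.02), Trpv4 (-0.02 to 0.28), Kcnk2 (-0.16 to 0.02), Tmem63b (-0.14 to 0.01), Tmem63b row 3 (-0.17 to 0.01), Tmem63a row 1 (-0.29 to 0.19) and row 3 (-0.05 to 0.69), Trpv2 row 1 (-0.01 to 0.30) and Trpv4 row 5 (-0.79 to 0.24). At VILI 6 hours they turned for Kcnk2 (-0.49 to 0.16), its row 1 (-2.83 to 0.06) and row 2 (-0.35 to 0.41), and Trpc6 row 1 (-0.06 to 0.22) and row 2 (-0.29 to 0.02). Between ventilated groups they turned for Kcnk2 (-0.45 to 0.21), its row 1 (-2.71 to 0.19) and row 2 (-0.09 to 0.67), Tmem63a (-0.05 to 0.07), Tmem63b (-0.19 to 0.04), its row 3 (-0.18 to 0.05) and row 6 (-0.33 to 0.07). Of the further genes named, Stim1 at 6 hours missed the unadjusted threshold without control replicates 2 or 3 or 6-hour replicates 2 or 3 (0.29 to 0.42), Nfatc4 at 0 hours without control replicate 2 (-0.36) or 0-hour replicate 3 (-0.33), and, between ventilated groups, Lrrc8c without 0-hour replicate 3 (0.31) and Tmc5 without 0-hour replicate 2 (0.63).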
